A study of Mus musculus with 6 samples.

Results

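The 35 genes described here encode the NRF2 pathway and the enzymes that handle glutathione, thioredoxin, superoxide and peroxides, and they are 35 of the 27365 genes with a symbol that were measured in mouse inguinal fat cells. They were taken from a list of symbols, and all 35 were on the array. Each symbol was read from its brightest transcript cluster whose probes are annotated as specific. A transcript cluster is a set of probes, named by the array's maker, that covers the exons of a gene. The cells were primary adipocytes of the inguinal depot, a subcutaneous white fat, differentiated in culture. One group had received 50 µM kynurenic acid for 12 h and the other PBS, its vehicle control, for 12 h, with 3 arrays each. The submitters' labels name neither strain, sex nor age, and they call the replicates technical. Nothing says that the arrays came from separate cultures or animals, so the p-values reflect nothing beyond the scatter of these 6 arrays, and that scatter may be technical.

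NRF2, encoded by Nfe2l2, is a transcription factor that KEAP1 binds and delivers for degradation. Oxidants and electrophiles modify KEAP1, and NRF2 then reaches the nucleus, where with small MAF proteins it binds the antioxidant response element in its target genes. Those targets make glutathione, reduce thioredoxin, supply NADPH and export conjugates. In fat cells, peroxide made by mitochondria and by NADPH oxidases is one of the loads that these enzymes remove. Kynurenic acid arises when tryptophan is degraded through the kynurenine pathway.

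The letters of the antioxidant response element, through which NRF2 is known to act on its targets, were searched near the starts of the genes. Elements farther from a start were not searched, so a window without a match does not mean a gene without an element. The element was searched on both strands as TGACNNNGC and as its variant TGAGTCAGC, in RefSeq windows of 250 bases before to 50 bases after each start (build GRCm38.p6). Windows were found for 29 of the 35 genes, 36 windows in all, and 11 of them held a match (30.6%). Among all 32851 windows of that table, 12.7% held one. The matches belonged to Nfe2l2, Gclm, G6pdx, Pgd, Txnrd1, Srxn1, Sod1, Prdx1, Mt2 and Abcc4. A match describes letters only, and it was not tested whether the site is bound. The variant TGAGTCAGC was found in Srxn1 alone among the 29 genes, 45 bases before the start, and in 0.414% of all windows. The matches to TGACNNNGC and TGAGTCAGC in Srxn1 do not overlap.

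The 160 bases before the start are given for 5 of these genes, with the match in capitals. They are also given for Gpx8, whose window held none and whose change was among the largest in size. They lie at chr4:116685439-116685598 on the plus strand for Prdx1, chr2:152105364-152105523 on the plus strand for Srxn1 and chr3:122245397-122245556 on the plus strand for Gclm. Those of Txnrd1, for the one of its 3 starts with a match, lie at chr10:82859046-82859205 on the plus strand, those of Mt2 at chr8:94172458-94172617 on the plus strand and those of Gpx8 at chr13:113046389-113046548 on the minus strand. Each runs 5′ to 3′ along its gene.
Prdx1: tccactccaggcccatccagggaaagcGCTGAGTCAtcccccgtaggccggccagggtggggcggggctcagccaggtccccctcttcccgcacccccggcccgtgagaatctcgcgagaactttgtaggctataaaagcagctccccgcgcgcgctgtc
Srxn1: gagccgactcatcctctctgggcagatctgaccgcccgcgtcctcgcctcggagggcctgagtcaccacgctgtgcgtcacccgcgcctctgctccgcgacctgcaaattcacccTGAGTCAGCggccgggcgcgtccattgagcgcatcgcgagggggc
Gclm: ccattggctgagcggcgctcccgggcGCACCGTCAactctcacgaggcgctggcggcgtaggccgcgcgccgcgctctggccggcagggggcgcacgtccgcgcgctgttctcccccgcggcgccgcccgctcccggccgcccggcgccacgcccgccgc
Txnrd1: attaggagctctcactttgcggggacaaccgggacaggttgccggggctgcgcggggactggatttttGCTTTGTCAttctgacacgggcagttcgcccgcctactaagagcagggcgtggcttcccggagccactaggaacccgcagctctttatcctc
Mt2: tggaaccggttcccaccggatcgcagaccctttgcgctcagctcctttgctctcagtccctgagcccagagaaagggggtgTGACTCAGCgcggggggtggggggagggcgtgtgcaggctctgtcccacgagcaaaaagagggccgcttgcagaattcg
Gpx8: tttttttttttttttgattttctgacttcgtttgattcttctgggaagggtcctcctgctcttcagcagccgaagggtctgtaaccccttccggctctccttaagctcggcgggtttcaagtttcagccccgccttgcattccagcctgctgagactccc

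No antioxidant gene passed the test. Values are log2 intensities from RMA, a method that corrects background and gives every array the same distribution, and a log2 change is the kynurenic acid mean minus the PBS mean. limma, with Benjamini-Hochberg adjustment over all 27365 genes and a threshold of 0.05, called 0 of the 35, and 0.00% of all genes. The smallest adjusted p among the 35 was 0.479 by limma, and 0.435 among all genes. At an unadjusted limma p below 0.05 stood 2 of the 35 (5.71%), Gpx8 and Prdx1, both lower, where 9.69% of all genes did, 5.00% lower and 4.69% higher. The 95% intervals of the 35 log2 changes lay between -0.50 and 0.36. The median interval extended 0.18 log2 to either side.

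The values as deposited leaned slightly downward, but both the amount and the direction depended on the scaling of the arrays. The median log2 change, kynurenic acid minus PBS, was -0.04 over the 35 genes and 0.0067 over all genes. It was 0.0057 for the 35 after cyclic loess, which evens out differences between arrays that vary with brightness, and -0.077 after centring the arrays on their medians. Over all genes it was 0.0011 after cyclic loess and -0.03 after centring, which shifts every gene by the same amount. Of the 35, 23 were below 0 and 12 above, after cyclic loess 16 were below and 19 above, and after centring on the medians 27 were below and 8 above. Genes of like brightness leaned downward as well. Of the 5060 genes with a mean of 6 to 8 log2, 65.9% were below 0, as were 65.7% of the 1624 genes from 8 to 10 and 62.5% of the 352 genes from 10 upward, where 32 of the 35 antioxidant genes lie.

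In 10 of the 35 genes (28.6%) the kynurenic acid arrays and the PBS arrays did not overlap, against 14.7% of all genes. In 8 of them (22.9%) all kynurenic acid arrays were lower, against 7.58% of all genes, and against 15.3%, 16.4% and 14.8% of the genes of the brightness ranges just named. In the other 2 (5.71%) all were higher, against 7.14% of all genes. With 3 arrays against 3 an exact permutation test of a single gene cannot give a two-sided p below 0.1. In all 8 genes that were lower, kynurenic acid array 2 was the highest of the 3 kynurenic acid arrays, so nearest to PBS. Over these 8 genes the mean deviation from the mean of all 6 arrays was -0.12, 0.0015 and -0.11 log2 in kynurenic acid arrays 1 to 3, against 0.089, 0.11 and 0.033 in PBS arrays 1 to 3. These 8 were picked by their values, so the deviations only describe how the arrays are ordered within each group.

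**Figure D1:**
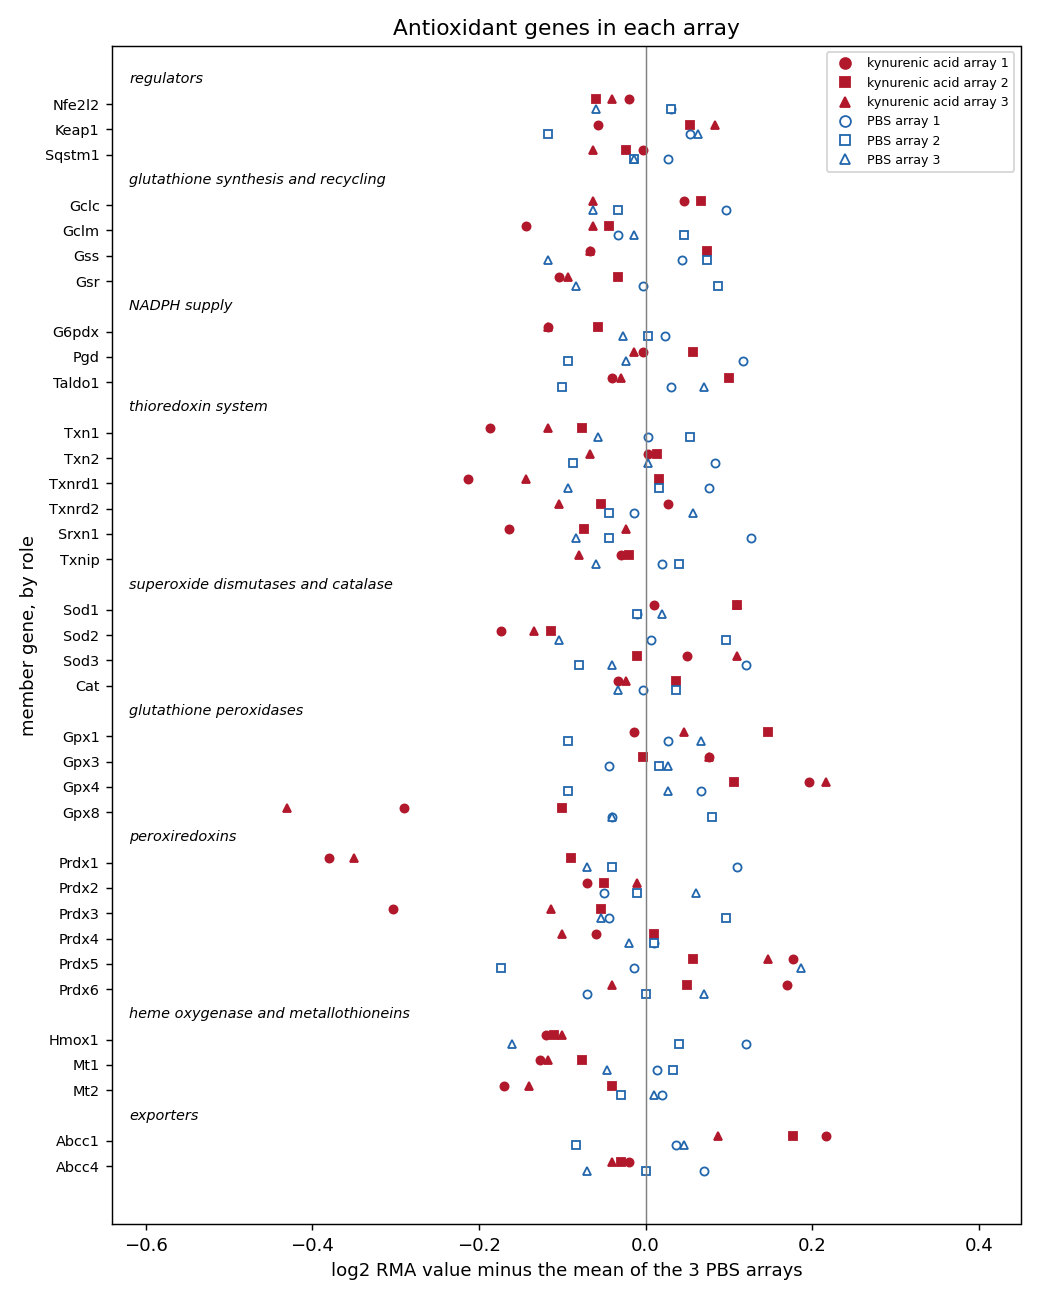
Values of the 35 antioxidant genes in each array, as log2 RMA value minus the mean of the 3 PBS arrays, with kynurenic acid arrays as filled red symbols drawn above the open blue symbols of the PBS arrays. For Gpx8 and Prdx1, both at a change of -0.27, kynurenic acid array 2 lies nearer to the PBS arrays than the other kynurenic acid arrays do.

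The regulators gave nearly the same values in both groups. Nfe2l2, the transcription factor itself, measured 9.04, 9.00 and 9.02 log2 in the kynurenic acid arrays, against 9.09, 9.09 and 9.00 in the PBS arrays. The groups overlapped and the change was -0.04, with a 95% interval from -0.21 to 0.13. It turned to 0.0057 after cyclic loess. Keap1, its inhibitor, averaged 6.26 ± 0.074 in kynurenic acid arrays and 6.24 ± 0.10 in PBS arrays (SD, n = 3 each). Sqstm1 encodes p62, an autophagy receptor that can sequester KEAP1, and it averaged 9.82 ± 0.031 in kynurenic acid arrays and 9.85 ± 0.023 in PBS arrays (SD, n = 3 each). NRF2 activity is known to be set largely through protein stability, which RNA levels do not measure.

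Genes of glutathione synthesis and recycling differed by at most 0.083 log2, less than the half-width of their intervals. Gclm, the modifier subunit of glutamate-cysteine ligase, measured 8.44, 8.54 and 8.52 log2 in kynurenic acid arrays, against 8.55, 8.63 and 8.57 in PBS arrays. All kynurenic acid values were below all PBS values, though by only 0.01 at the nearest pair, and the change was -0.083 (SE 0.075, limma adjusted p = 0.732). Gclc, the catalytic subunit, had a log2 change of 0.017, which turned below 0 after centring the arrays on their medians. Gss, glutathione synthetase, had -0.02, which turned above 0 after cyclic loess. Gsr, the reductase that regenerates glutathione, had -0.077. Both subunits of the ligase are known NRF2 targets.

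Of the genes of NADPH supply, G6pdx had the largest difference. It encodes glucose-6-phosphate dehydrogenase, the first enzyme of the pentose phosphate pathway, and measured 10.71, 10.77 and 10.71 log2 in kynurenic acid arrays, against 10.85, 10.83 and 10.80 in PBS arrays. The groups did not overlap, with a change of -0.097 and a 95% interval from -0.26 to 0.067. Pgd and Taldo1, which act later in the same pathway, had changes of 0.013 and 0.01, both below 0 after centring the arrays on their medians.

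All 6 genes of the thioredoxin system were below 0 as measured, with a median change of -0.065 log2, but Txn2 and Txnrd2 were above 0 after cyclic loess. Txn1, the cytosolic thioredoxin, measured 8.66, 8.77 and 8.73 log2 in kynurenic acid arrays, against 8.85, 8.90 and 8.79 in PBS arrays. Its groups lay apart by 0.02 at the nearest pair, with a change of -0.13 (SE 0.077, limma adjusted p = 0.606). Txnrd1, its selenium-dependent reductase, had -0.11 with overlapping groups. Srxn1, sulfiredoxin, which repairs overoxidised peroxiredoxins and whose promoter carries the variant printed above, had -0.087 with a 95% interval from -0.28 to 0.11. Changes were -0.017 for the mitochondrial Txn2 and -0.043 for its reductase Txnrd2. Txnip, which binds and inhibits thioredoxin and is known to respond to glucose, had -0.043.

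Among superoxide dismutases, the mitochondrial Sod2 was lower and the cytosolic Sod1 higher as measured, and neither passed. Sod2 measured 10.26, 10.32 and 10.30 log2 in kynurenic acid arrays, against 10.44, 10.53 and 10.33 in PBS arrays. Its groups did not overlap and the change was -0.14 (95% interval from -0.32 to 0.044, limma adjusted p = 0.590). Sod1 had a change of 0.077 and the secreted Sod3 one of 0.05, both with overlapping groups. Cat, the peroxisomal catalase, averaged 11.57 ± 0.038 in kynurenic acid arrays and 11.57 ± 0.035 in PBS arrays (SD, n = 3 each).

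The glutathione peroxidases held the lowest and the highest change of the list, Gpx8 equally with Prdx1 at the low end. Gpx8, a peroxidase of the endoplasmic reticulum, lies on chromosome 13 at 113042763 to 113046388 (mm10). It measured 8.53, 8.72 and 8.39 log2 in kynurenic acid arrays, against 8.78, 8.90 and 8.78 in PBS arrays. The groups did not overlap, but kynurenic acid array 2 was only 0.06 below the nearest PBS arrays. The change was -0.27 (SE 0.099, 95% interval from -0.50 to -0.05, limma adjusted p = 0.479), or 1.21-fold downward. Without kynurenic acid replicate 3 it was -0.20 and without PBS replicate 2 it was -0.23, and it was no longer at an unadjusted limma p below 0.05 in either case, without kynurenic acid replicate 1 or by the methods' t-test, the test that the deposited table names.

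Gpx4, which reduces lipid hydroperoxides in membranes and protects against ferroptosis, had the highest change. It measured 7.24, 7.15 and 7.26 log2 in kynurenic acid arrays, against 7.11, 6.95 and 7.07 in PBS arrays. All kynurenic acid values were above all PBS values, with a change of 0.17 (95% interval from -0.009 to 0.36, limma adjusted p = 0.525). Gpx1, the cytosolic form, and Gpx3, the secreted form, had changes of 0.06 and 0.05 with overlapping groups. These were above 0 also after cyclic loess and after centring on the medians, and Gpx1 was at -0.03 without both arrays numbered 2.

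Of the peroxiredoxins, which reduce peroxides with electrons from thioredoxin, Prdx1 gave values that depended on the probes. Its cluster of 18 specific probes, on chromosome 4 at 116685544 to 116700822, measured 4.33, 4.62 and 4.36 log2 in kynurenic acid arrays, against 4.82, 4.67 and 4.64 in PBS arrays. The groups lay apart by 0.02 at the nearest pair and the change was -0.27 (SE 0.10, limma adjusted p = 0.488). It was -0.22 without kynurenic acid replicate 1, -0.235 without kynurenic acid replicate 3 and -0.22 without PBS replicate 1, and in these cases no longer at an unadjusted limma p below 0.05, nor was it below 0.05 by the methods' t-test. The specific cluster is dim, with a mean of 4.57 log2 over all arrays, the lowest among the antioxidant genes. Array medians were 4.22 to 4.29. The antigenomic probe sets, which gauge background, averaged 3.58 to 3.91 per array, with SDs of 1.87 to 2.16 among sets. The change of this cluster therefore rests on values near background. A second cluster carries the same symbol. It has 17 probes annotated as less specific and placed on chromosome 8 at 129252951 to 129253859. It measured 10.40, 10.40 and 10.41 in kynurenic acid arrays, against 10.40, 10.54 and 10.40 in PBS arrays, a change of -0.043 with overlapping groups. Which of them reads the Prdx1 messenger RNA was not tested.

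The other peroxiredoxins did not reach an unadjusted p of 0.05. The mitochondrial Prdx3 averaged 9.95 ± 0.13 log2 in kynurenic acid arrays and 10.10 ± 0.084 in PBS arrays (SD, n = 3 each), with groups that met at 10.05. Prdx5, found in mitochondria, peroxisomes and cytosol, averaged 8.04 ± 0.062 in kynurenic acid arrays and 7.91 ± 0.18 in PBS arrays (SD, n = 3 each). The cytosolic Prdx2 had -0.043, which turned above 0 after cyclic loess, and Prdx4 of the endoplasmic reticulum had -0.05. Prdx6, which uses glutathione rather than thioredoxin, had 0.06.

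A pair of clusters stands under Cat as well. The specific one runs along the gene on the minus strand. The other has 20 less specific probes, is annotated to the plus strand at 103476746 to 103485131 of chromosome 2, within the bounds of the gene, and measured 8.71, 8.64 and 8.77 log2 in kynurenic acid arrays, against 8.53, 8.40 and 8.53 in PBS arrays. Its groups did not overlap and the change was 0.22, with limma adjusted p = 0.480 over the 29726 annotated clusters. The strand annotation is opposite to that of Cat, and whether this cluster reads catalase messenger RNA was not tested.

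**Figure D2:**
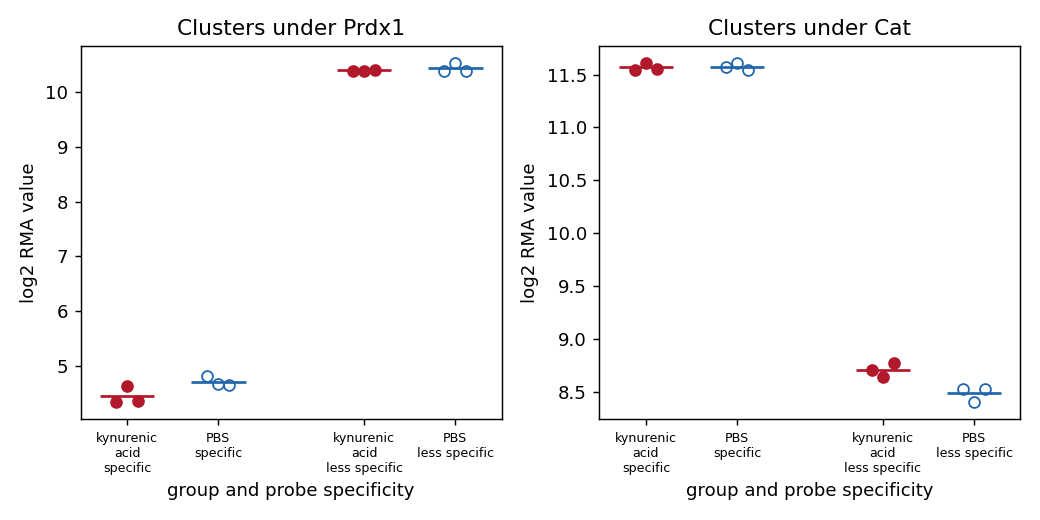
Log2 RMA values of both clusters annotated to Prdx1 (left) and to Cat (right), with kynurenic acid arrays as filled red points, PBS arrays as open blue points and a line at each group's mean. Under Prdx1 the groups of the specific cluster do not overlap and those of the less specific one do, while under Cat it is the less specific cluster whose groups do not overlap.

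Heme oxygenase and the metallothioneins were below 0 by about the same amount. Mt2, a cysteine-rich protein that binds zinc and copper, measured 11.82, 11.95 and 11.85 log2 in kynurenic acid arrays, against 12.01, 11.96 and 12.00 in PBS arrays. Kynurenic acid array 2 was 0.01 below the lowest PBS array, and the change was -0.12 (SE 0.076, limma adjusted p = 0.631). Mt1, its neighbour on chromosome 8, had -0.11 with groups that did not overlap either. Both were below 0 in all 15 alternatives, from -0.14 to -0.079 for Mt1 and from -0.17 to -0.09 for Mt2. Hmox1, which breaks heme down and is a widely used marker of NRF2 activity, measured 9.50, 9.51 and 9.52 in kynurenic acid arrays, against 9.74, 9.66 and 9.46 in PBS arrays. The groups overlapped, and its 95% interval ran from -0.31 to 0.093.

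The exporters are pumps of the ABC family. Abcc1, which exports glutathione and its conjugates, measured 7.83, 7.79 and 7.70 log2 in kynurenic acid arrays, against 7.65, 7.53 and 7.66 in PBS arrays. All kynurenic acid values were higher, with a change of 0.16 (95% interval from -0.021 to 0.34, limma adjusted p = 0.549). Abcc4, which exports cyclic nucleotides among other anions, had -0.03 with overlapping groups.

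**Figure D3:**
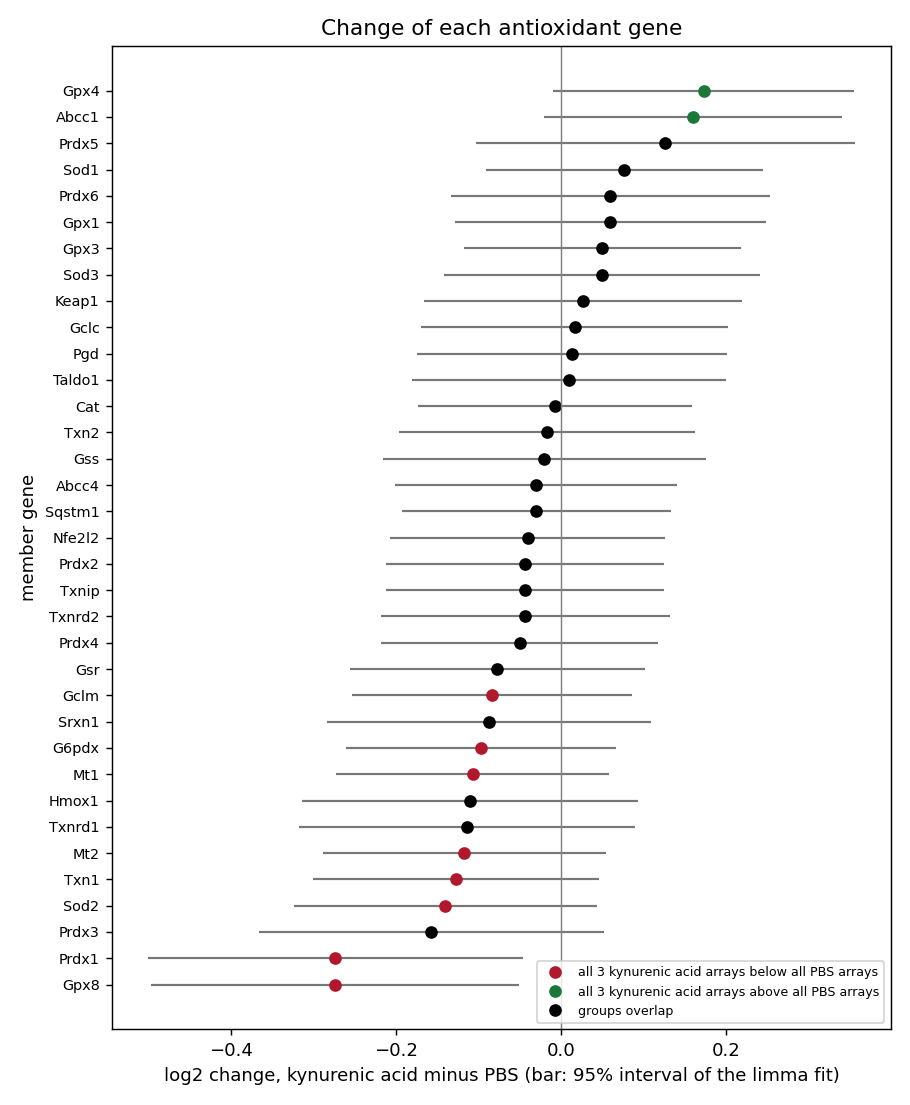
Log2 change of each of the 35 antioxidant genes, kynurenic acid minus PBS, with its 95% interval from the limma fit. Gpx8 and Prdx1 are the 2 genes whose interval does not reach 0, and no gene passed after adjustment over all genes.

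The changes were also set out by whether a gene's window held a match. The 10 genes with a match had a median log2 change of -0.085, 8 of them below 0, and the 19 genes without one had -0.03, 13 of them below 0. Gclc, Gsr, Sod3, Prdx6, Hmox1 and Abcc1, the 6 genes for which no window was found, had 0.033, 2 of them below 0. At an unadjusted limma p below 0.05 stood Prdx1 among those with a match, Gpx8 among those without, and none of the 6. These are changes of the values as deposited. Cyclic loess turned Nfe2l2, among those with a match, above 0, as it did Sqstm1, Gss, Txn2, Txnrd2, Cat and Prdx2 among those without. With its brightest cluster Prdx1 had -0.043. Whether the sets differ was not tested.

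Other genes of the pathway were measured beside them. A further list of NRF2 cofactors, detoxifying enzymes, cystine and glutathione handling and other targets had 65 measured genes. None of the 65 passed by limma over all genes, and 6 (9.23%) stood at an unadjusted p below 0.05, close to the 9.69% of all genes, 2 of them higher and 4 lower. The median change was -0.013.

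The quinone reductases lay on opposite sides of 0. Nqo1, a classical target of NRF2 and also of the aryl hydrocarbon receptor, measured 5.66, 5.88 and 5.81 log2 in kynurenic acid arrays, against 5.61, 5.62 and 5.40 in PBS arrays. The groups did not overlap, with a change of 0.24 (SE 0.096, limma adjusted p = 0.499). Nqo2, which uses another electron donor, measured 6.96, 7.13 and 6.96 in kynurenic acid arrays, against 7.21, 7.45 and 7.32 in PBS arrays. That is a change of -0.31 with limma adjusted p = 0.472, the largest of the 65 in size.

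Glrx, the glutaredoxin that removes glutathione from proteins, averaged 8.60 ± 0.13 log2 in kynurenic acid arrays and 8.90 ± 0.12 in PBS arrays (SD, n = 3 each, change -0.30). The glutathione transferase Gstm1 had -0.21 and Gstp1 had 0.18. Families of near-identical copies can share probes, and Gstp2, read from less specific probes, had 0.053. The ferritin light chain Ftl1 had -0.22 in its 13 specific probes, at a mean of 6.4 log2. Less specific clusters under its symbol, brighter at 8.3 and 8.4 log2, gave 0.31 and 0.40, with higher groups that did not overlap. Over all annotated clusters their unadjusted limma p was 0.0456 and 0.00672, against 0.0422 for the specific cluster. Ftl1 was counted as lower by its specific probes alone. Signs of the other 5 genes named here, Nqo1, Nqo2, Glrx, Gstm1 and Gstp1, were the same in all 15 alternatives.

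Adipocyte markers were bright in both groups. All 7 measured markers, among them Fabp4, Adipoq and Pparg, exceeded, in every array, the average of the antigenomic probe sets that gauge background, as did all 35 antioxidant genes. Summed linear intensities of the 7 ran from 12389 to 12810 in kynurenic acid arrays and from 12804 to 13131 in PBS arrays, ranges that meet at their edge, and 6 of the 7 were below 0 in log2 change. Macrophage markers were present too, with Lyz2 at 10.66 log2 in kynurenic acid arrays and 10.58 in PBS arrays. Their sums over 7 genes ran from 2900.5 to 3509.7 in kynurenic acid arrays and from 2955 to 3325.4 in PBS arrays, with 6 of the 7 below 0. Sums of the 6 preadipocyte and fibroblast markers were 1125 to 1303.8 in kynurenic acid arrays and 1312.3 to 1331.3 in PBS arrays, a sum that rests mostly on Pdgfra, at a change of -0.11. Of these 6 genes 3 were above 0 and 3 below, with a median change of 0.017, and Dpp4 was below background in every array.

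Proliferation markers were lower in the same arrays. All 5, Mki67, Top2a, Kif11, Bub1 and Rrm2, had lower groups that did not overlap, as 7.58% of all genes did, and a limma adjusted p of 0.472. Their sums were 146.28 to 157.93 in kynurenic acid arrays and 184.82 to 209.15 in PBS arrays. Bub1 was below background in 3 of the 6 arrays, all of them kynurenic acid arrays. It measured 3.53, 3.17 and 3.38 log2 there, against 3.83, 3.59 and 3.82 in PBS arrays 1 to 3. Background in those PBS arrays averaged 3.76, 3.58 and 3.75, so the change of Bub1 rests on values near background. Sums of the 6 endothelial markers were 119.96 to 124 in kynurenic acid arrays and 99.475 to 105.35 in PBS arrays. The difference between these sums rests mostly on Cdh5, at a change of 0.51. Of these 6 genes 4 were above 0 and 2 below, Tek at -0.093 and Tie1 at -0.043. Kdr and Tie1 were below background in 5 of the 6 arrays, and Esam in 4. Sums of the 5 mammary epithelial markers were 91.831 to 94.157 in kynurenic acid arrays and 86.892 to 87.544 in PBS arrays, with 4 of the 5 above 0 and Epcam below background in every array. The endothelial and mammary epithelial markers all had a mean below 6 log2. Genes that dim leaned upward. Of the 20329 genes at that level 40.7% were below 0, with a median change of 0.027. The part of any of these cells in the antioxidant values was not tested, and fewer cells of a type cannot be told apart from less RNA per cell.

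**Figure D4:**
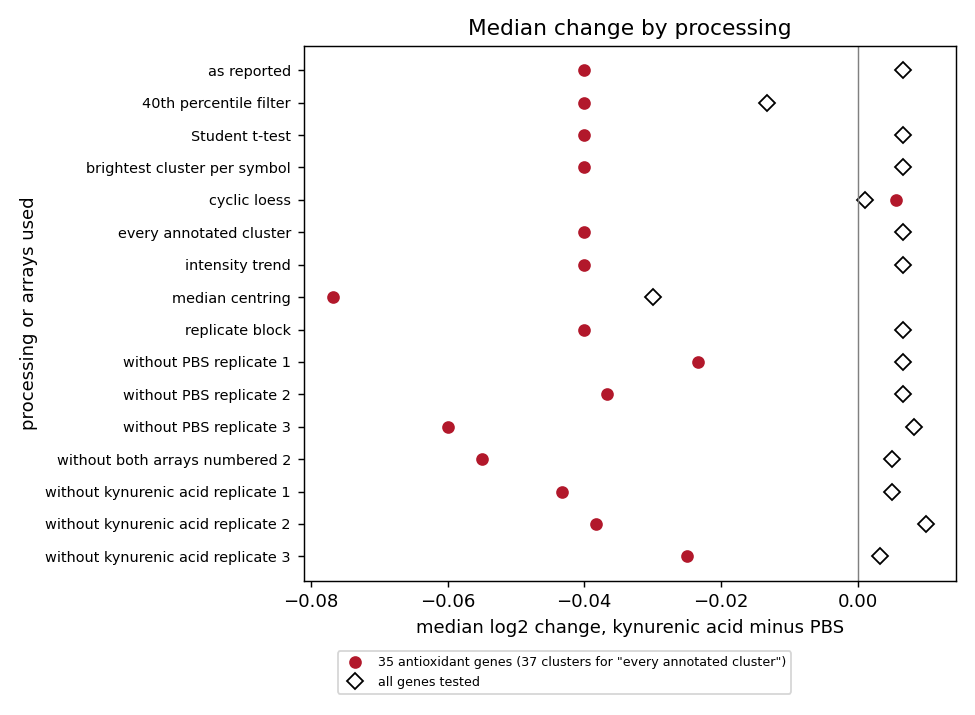
Median log2 change, kynurenic acid minus PBS, of the antioxidant genes (filled red circles) and of all genes tested (open diamonds) for the values as reported and each alternative. The median of the antioxidant genes lies below 0 except after cyclic loess, where it is 0.0057.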

How the data were processed

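RNA was measured on 6 Affymetrix MoGene 2.0 ST arrays, grouped by their titles. The authors deposited log2 values made with RMA (background correction, quantile normalisation, median polish), per the file headers, in Affymetrix Expression Console 1.41, per the submitters' processing notes. RMA gives all arrays 1 distribution, so a shift of most transcripts would not be seen. Both deposited tables held the same values for 41345 clusters (largest difference 0), and annotation was NetAffx build 34 on mm10, per the file headers. Array medians ran from 4.22 to 4.29 log2, and the means of 23 antigenomic background sets from 3.58 to 3.91. Values between pairs of arrays correlated at 0.992 to 0.996 across genes, which are not independent replicates.

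Each symbol was given 1 row by the rule stated in the report. For 299 genes this was not the brightest cluster. limma 3.58.1 in R 4.3.3 (lmFit, eBayes, two-sided) compared kynurenic acid with PBS over all 27365 genes, without a filter on dim genes, with Benjamini-Hochberg adjustment. The fit was tested on simulated data. The number of arrays, 3 in each group, limits the precision.

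All 35 genes are named. The value in every array is given for those at an unadjusted p below 0.05, those with groups that do not overlap and a change of at least 0.15 log2, and the gene with the largest change of each role; Hmox1 and array values of other clusters were added after values were seen. Of the further list, genes at an unadjusted p below 0.05 and the 2 largest changes are named. The genes, lists and tests were chosen with earlier results of these data known. Correlations of deviations from group means were 0.037, 0.065 and 0.093 between same-numbered arrays. Between arrays of different numbers they ran from -0.070 to 0.0038. The labels do not pair the arrays, and the numbers were not treated as pairs. Whether same-numbered arrays share a batch was not tested. Alternatives were 2 scalings, a dim filter, 2 cluster rules, a variance trend, the replicate number as a block, the methods' t-test, single arrays left out and, chosen after seeing the data, both arrays numbered 2 left out.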

Additional observations from a re-analysis of the deposited data

How the results depend on the processing

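Neither any antioxidant gene nor any of the 65 other pathway genes nor any gene of the table passed the adjusted threshold in any of the 15 alternatives, with limma or with the methods' t-test, which left 2156 genes at an unadjusted p below 0.05 where limma left 2653. The count of antioxidant genes at an unadjusted p below 0.05, 2 as reported, was 1 with the brightest cluster per symbol, 4 after cyclic loess, 5 by the methods' t-test and 9 with the intensity trend. Of all genes, 9.73%, 8.83%, 7.88% and 10.5% stood below 0.05 in these settings, in the same order. The 5 of the methods' t-test were Abcc1, G6pdx, Gpx4, Mt1 and Txn1, so neither Gpx8 nor Prdx1 was among them. With single arrays left out the count ran from 0 to 2, while 6.98% to 13% of all genes stood below 0.05. It was 0 without kynurenic acid replicate 1 and without kynurenic acid replicate 3, and 1 without PBS replicate 1 and without PBS replicate 2. The median change of the 35, -0.04 as reported, was 0.0057 after cyclic loess and -0.077 after centring on the medians, and ran from -0.06 to -0.0233 with single arrays left out. Of the 65 other genes, 6 as reported, 3 stood at an unadjusted p below 0.05 by the methods' t-test and, among single arrays left out, 3 to 9. The 9 were found without kynurenic acid replicate 2, where 13% of all genes stood below 0.05. The replicate block left the count at 2 and the median at -0.04, while 10.6% of all genes stood at an unadjusted p below 0.05. Every array correlated best with its own number in the other group, a hint from the data and not the design. Of the 35 genes, 22 had 1 sign in all 15 alternatives and 13 did not, 7 of them turned by cyclic loess. Prdx1 went to -0.043 with the brightest cluster, and Ftl1 to 0.40, because another cluster was read. Centring on the medians moved every gene of the table by the same amount, and the all-gene median from 0.0067 to -0.03. What caused the remaining shifts was not tested. Both arrays numbered 2 left out gave a median of -0.055 and a count of 2.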

Other observations

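Slc7a11, the cystine importer that feeds glutathione synthesis, averaged 4.26 ± 0.21 log2 in kynurenic acid arrays and 4.47 ± 0.032 in PBS arrays (SD, n = 3 each), with groups that did not overlap and an unadjusted p above 0.05. A dimmer Slc7a11 cluster on the opposite strand, below background in all 6 arrays, gave -0.03. The NRF2 targets Me1, malic enzyme, and Fth1, the ferritin heavy chain, differed by -0.05 and -0.0033 log2. These genes were named after their values were seen.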
